A study of Mus musculus with 13 samples.

Results

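The glutamate, nicotinic acetylcholine, glycine, purine (P2X) and 5-HT3 receptor genes were chosen by their symbols from the gene list of the deposited UMI tables, which gave 55 of 50508 listed genes. A UMI is a molecular tag that lets each captured RNA molecule be counted once. Single neurons of mouse dorsal root ganglia (DRG), from animals of either sex, had been dissociated, sorted by fluorescence into 96-well plates and sequenced with a 3' Plate-seq protocol. The adult (at least 56 days old, 5 plates), P12 (4 plates) and P0 (2 plates) neurons carried PV:Cre+/-;Rx3:Flp+/-;Ai65+/-, a reporter that makes tdTomato in cells that have expressed both Parvalbumin and Runx3, and the E14.5 neurons (2 plates) carried TrkC:tdTomato, a reporter driven by the neurotrophin-3 receptor gene that also takes in other sensory neurons. Reporter and stage therefore cannot be told apart in any comparison with E14.5. The animals numbered 2 for E14.5, 6 for P0, 4 for P12 and 6 for adults, and whether plates of a stage shared animals was not given. The 5 adult plates came from 3 experiments, so some share one, and which do was not given. The p-values between stages therefore measure the spread between plates. In comparisons within a stage, plate was mostly a term of the fit, so the p-values there measure how differences within plates varied from plate to plate. Either spread may be smaller than that between independent preparations.

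Proprioceptors report muscle length and tension, and excite motor neurons and spinal interneurons with glutamate. Receptors that these neurons make can be carried to the peripheral ending in muscle or to the central terminal in the spinal cord, where presynaptic receptors adjust transmitter release. AMPA, kainate and NMDA receptors are glutamate-gated channels built of subunits, and metabotropic (mGlu) receptors act through G proteins, of which the group III receptors Grm4, Grm7 and Grm8 are known as presynaptic autoreceptors. Nicotinic, glycine and 5-HT3 receptors are 5-subunit channels, for acetylcholine, glycine and serotonin. P2X receptors are ATP-gated channels made of 3 subunits, and P2rx3 is best known from nociceptors.

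The neurons kept in the deposited annotation were used, 586 of 1248 wells, of which 169 were from E14.5, 55 from P0, 154 from P12 and 208 from adults. Of the adult neurons, 42 lie outside the 5 numbered clusters and enter the stage values but not the cluster values. The median depth of a kept neuron was 10604 UMIs at E14.5, 41058 at P0, 24462.5 at P12 and 36926.5 in the adult, and the kept neurons of a plate summed to between 680212 and 2387288 UMIs. At P12, replicates 1 and 2 held 25 neurons with a median of 56144 UMIs, and replicates 3 and 4 held 129 with a median of 22104. All 5 proprioceptor marker genes were detected at every stage, and their summed level was 1668 to 1708 CPM (UMIs scaled to a common total per neuron) at E14.5 and 2761 to 5060 CPM on plates of the later stages. The 8 nociceptor markers summed to at most 200.3 CPM on any plate, and the 10 glia markers to at most 878 CPM. All plates carried the same 96 well barcodes. Levels are the mean CPM over the neurons of a plate, given with the SD over plates.

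Of the 55 genes, 46 had a UMI in a kept neuron and 39 had one in an adult neuron. All 4 AMPA genes, all 5 kainate genes, all 7 P2X genes and both 5-HT3 genes were detected, as were 9 of 13 nicotinic, 7 of 8 mGlu, 3 of 5 glycine and 6 of 8 NMDA genes. Chrna2, Chrna9, Chrna10, Glra4 and Grin1os, an antisense RNA of Grin1 that the symbol rule takes in, had no UMI in any well, and Chrnb4, Glra1, Grin2c and Grm6 had none in a kept neuron. The members summed to 10826 UMIs in the kept neurons, and 26 of the 55 had fewer than 20. A gene with this few UMIs could be absent from a neuron or missed in it.

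Subunits that assemble with each other were detected unevenly. Glrb, the glycine receptor beta subunit, which anchors the receptor to gephyrin, had 2232 UMIs, against 10 for the 4 alpha subunit genes together. Grin1, the obligatory NMDA subunit, had 996 UMIs, against 46 for the 4 Grin2 genes and 69 for Grin3a. Chrnb2, a beta subunit found in brain nicotinic receptors, had 615 UMIs. These are counts of 3' tags and not of subunits.

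**Figure D1:**
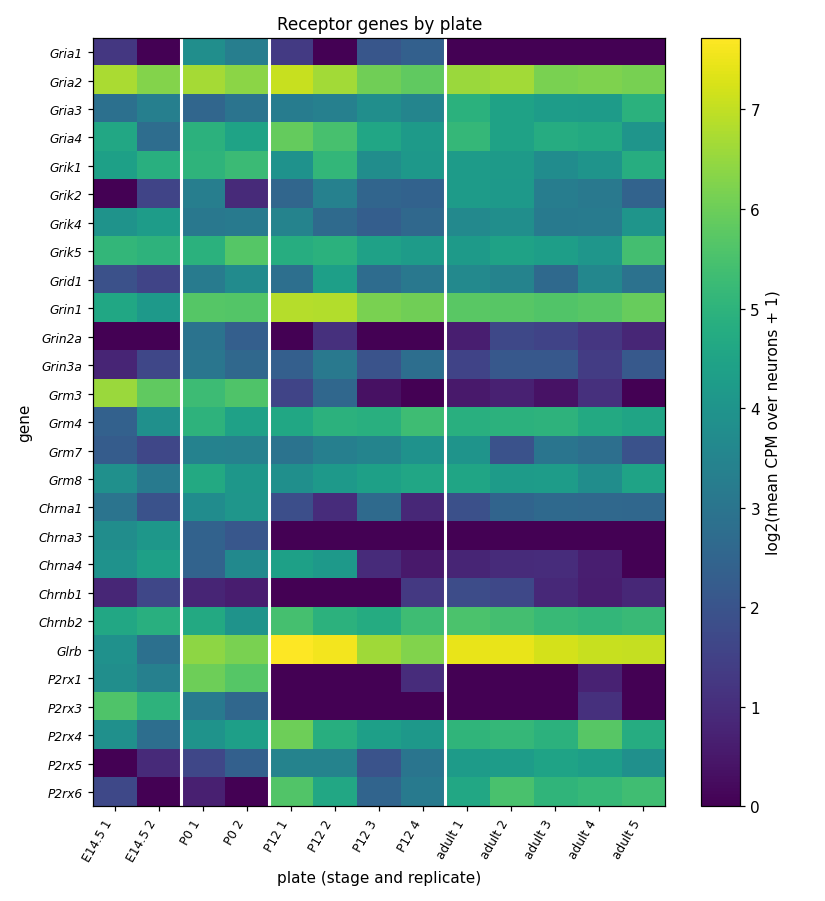
Heat map of 27 receptor genes with at least 20 UMIs in the kept neurons (vertical axis) over the 13 plates (horizontal axis, by stage), colored by log2(mean CPM over neurons + 1). Gria2, Glrb and Grin1 had signal on every plate, whereas P2rx3 was at most at 1.12 CPM, Chrna3 at 0 and Grm3 at most at 5.02 CPM on the P12 and adult plates.

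The first comparison was among the 5 adult clusters that the annotation gives. In the terms of the study, cluster 1 stands for group Ia muscle spindle afferents, cluster 5 for Golgi tendon organ (group Ib) afferents, and clusters 2 to 4 for presumptive group II spindle afferents. Among the receptor genes, Grm8 had the lowest adjusted p across clusters. It was near 0 in cluster 1 and at its highest mean levels in clusters 4 and 5, Grm7 was not detected in cluster 1, and the kainate subunit gene Grik1 was higher in cluster 5 than in any other cluster on average. The UMIs of each cluster were added up plate by plate and fitted with edgeR (quasi-likelihood test, plate as block, Benjamini-Hochberg adjusted p under 0.05 over all genes). The clusters had been defined by the authors on the expression of the same neurons, so these tests are not independent of them. Across clusters 14 members passed the filter on low counts and 6 were called, where 16% of all genes tested were. The filter keeps a gene that is high in a few sums, so the genes it kept were more likely to differ.

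Grm8 (GRCm38.p6 chromosome 6, 27275121 to 28135146), a presynaptic group III receptor, was measured at 21.6, 23.8, 40.8, 29.2 and 19.8 CPM on adult replicates 1 to 5 in cluster 5 (27.0 ± 8.49, SD, n = 5 plates). In cluster 1 it was at 0, 3.70, 0, 1.54 and 0 CPM (1.05 ± 1.63, n = 5). The groups did not overlap, and cluster 4, with 39.8 and 37.5 CPM on its 2 plates, was at the upper end of cluster 5. Cluster 2 had 5.83 and 8.30 CPM, and cluster 3 had 0, 13.3, 16.5 and 27.6 CPM on replicates 2 to 5. Cluster 1 held 2 Grm8 UMIs, so the ratio of cluster 5 to cluster 1 was 43.1 with a 95% counting interval from 11.3 to 366, and those of clusters 4 and 3 were 60.1 (14.8 to 526) and 23.2 (5.77 to 203). The call across clusters (adjusted p = 6.23e-06) and that between clusters 5 and 1 (adjusted p = 2.04e-06) held without any 1 plate. Grm8 was detected in 24 of 31 cluster 5 neurons (77.4%, 95% exact interval 58.9 to 90.4) and in 2 of 51 cluster 1 neurons (3.92%), at median depths of 57694 and 59922 UMIs. With each neuron thinned to 7000 UMIs, the mean share over plates was 23.4% in cluster 5 and 0% in cluster 1.

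Grm7 (chromosome 6, 110645349 to 111567230), another presynaptic group III receptor, was measured at 13.5, 3.45, 38.2, 10.3 and 19.2 CPM in cluster 5 (16.9 ± 13.2, n = 5) and at 0 on all 5 plates in cluster 1. Cluster 3 had 0, 6.93, 10.4 and 0 CPM, cluster 4 had 24.9 and 0, and cluster 2 had 0 and 2.90. The level in cluster 5 was at least 15.3-fold higher than the 3 counts that the depth of cluster 1 allows over the group. Grm7 was called across clusters (adjusted p = 0.00393) and between clusters 5 and 1 (adjusted p = 0.000753). Without adult replicate 3 or 4, and in either set of plates alone, it did not pass the filter and was not tested. It was detected in 12 of 31 neurons in cluster 5 (38.7%, 95% exact interval 21.9 to 57.8) and in 0 of 51 in cluster 1 (95% exact interval up to 6.98%), which bounds neurons with a UMI and not neurons that express the gene. Of the 31 cluster 5 neurons, 10 had UMIs of both Grm7 and Grm8, 14 of Grm8 alone, 2 of Grm7 alone and 5 of neither.

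Grm4 (chromosome 17, 27422387 to 27513826), the remaining detected group III gene, had another order. It was measured at 53.8 and 32.5 CPM in cluster 2, at 36.1 and 52.9 CPM in cluster 4 and at 10.4, 45.9, 36.9 and 14.8 CPM in cluster 3. In cluster 1 it was at 15.5, 12.9, 19.5, 15.9 and 6.25 CPM (14 ± 4.95, n = 5), and in cluster 5 at 27.2, 25.3, 10.9, 22.2 and 19.2 CPM (20.9 ± 6.38, n = 5). Both plates of clusters 2 and 4 were above every plate of clusters 1 and 5, while cluster 3 overlapped with them. Grm4 was called across clusters (adjusted p = 0.0226), but not without adult replicate 1 (0.1), 2 (0.0793), 3 (0.0568) or 4 (0.132), without the plate block (0.0506) or with DESeq2 (0.08).

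Grik1 (chromosome 16, 87895901 to 88290863), the GluK1 kainate subunit, was measured at 25.9, 45.0, 29.9, 30.4 and 36.5 CPM in cluster 5 (33.5 ± 7.46, n = 5) and at 18.5, 11.9, 16.9, 10.5 and 19.5 CPM in cluster 1 (15.5 ± 4.02, n = 5). Every plate of cluster 5 was above every plate of cluster 1. Cluster 2 had 23.3 and 5.54 CPM, cluster 3 had 0, 9.24, 6.48 and 21.3 CPM, and cluster 4 had 9.20 and 0 CPM. Gria2 (chromosome 3, 80681450 to 80804227), the AMPA subunit whose RNA editing makes the channel impermeable to calcium, was measured at 180.5, 150.5, 95.1, 105 and 80.3 CPM in cluster 1 (122 ± 41.8, n = 5). It was at 78.8, 93.9, 65.8, 91.2 and 80.9 CPM in cluster 5 (82.1 ± 11.2, n = 5), at 133 and 103 CPM in cluster 2, at 179.9, 62.3, 49.2 and 99.4 CPM in cluster 3 and at 30.4 and 73.2 CPM in cluster 4. The highest cluster 1 plates were replicates 1 and 2, and replicate 5 lay within the range of cluster 5. Grik1 was called across clusters (adjusted p = 0.0125), but not without replicate 2 (0.0661) or 4 (0.0876), and Gria2 was called (adjusted p = 0.0032), but not without replicate 1 (0.237) or without the plate block (0.139).

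P2rx6 (chromosome 16, 17561867 to 17572015), a P2X subunit that forms poor channels on its own, was measured at 45.7, 50.5, 34.4, 73.6 and 63.5 CPM in cluster 5 (53.6 ± 15.3, n = 5) and at 31.4, 45.9, 31.2, 37.6 and 59.4 CPM in cluster 1 (41.1 ± 11.9, n = 5). Cluster 3 had 28.7, 19.1, 10.8 and 24.4 CPM (20.8 ± 7.69, n = 4), below every plate of clusters 1 and 5. Cluster 2 had 25.2 and 41.2 CPM and cluster 4 had 14.1 and 42.7 CPM, which overlapped with both. The call across clusters (adjusted p = 0.0184) was lost without replicate 1 (0.0804), 4 (0.236) or 5 (0.0612), and with sums of at least 4 neurons (0.0743).

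**Figure D2:**
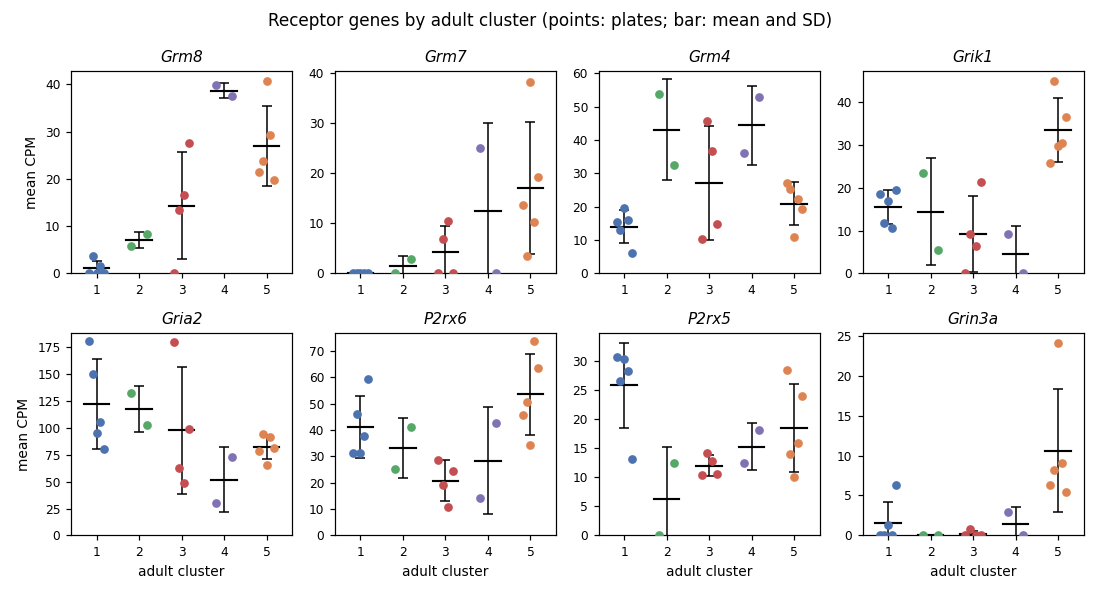
Mean CPM over neurons (vertical axis, linear from 0) of 8 receptor genes by adult cluster (horizontal axis), with 1 point for each plate holding at least 2 neurons of the cluster and bars for the mean and SD. Grm8 and Grm7 had their lowest means over plates in cluster 1, and the cluster 5 plates stood above all cluster 1 plates for Grm8, Grm7 and Grik1.

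Cluster 5 was then set against cluster 1, the comparison of tendon organ with group Ia afferents. Of the 14 tested members, 3 were higher in cluster 5 and 0 were lower, where 9.66% of all genes tested were called, 5.32% higher and 4.34% lower. They were Grm8, Grm7 and Grik1, the last with a log2 fold change of 1.18 (SE 0.35, adjusted p = 0.0288). The fitted log2 fold change had a median of 0.21 over the members tested and 0.00 over all genes tested, and setting Grm7 to its bound leaves it above the median. Gria2 had a log2 fold change of -0.56 (SE 0.19, adjusted p = 0.0608). With no filter on low counts, edgeR gave -0.63 for Gria2 and called it lower (adjusted p = 0.0151). Leaving out replicate 2 (adjusted p = 0.119) or 4 (0.15) ended the Grik1 call, as did a fit without the plate block (0.0929), with DESeq2 (0.0586), and in replicates 1 and 2 (0.237) or 3 to 5 (0.172) fitted alone.

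**Figure D3:**
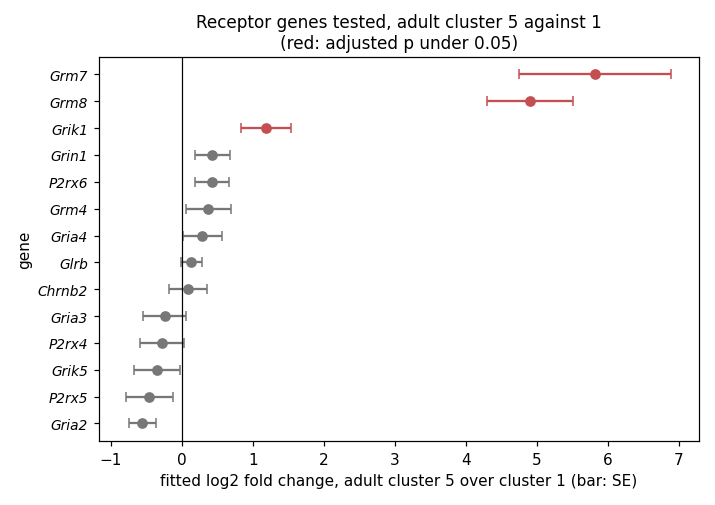
Fitted log2 fold change of the 14 tested receptor genes in adult cluster 5 over cluster 1 (horizontal axis, bars for the SE), with genes of adjusted p under 0.05 in red. Grm7, Grm8 and Grik1 are the red genes, and the values of Grm7 and Grm8 rest on 0 and 2 UMIs in cluster 1, so their size is not a bound.

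Grin3a (chromosome 4, 49661611 to 49846023), an NMDA subunit that lowers calcium permeability, was too low for the filter. It was taken up because the study names it for cluster 5 on these same neurons, so its tests are not independent evidence of that pattern. The study also detected Grin3a RNA by in situ hybridization in sections of adult lumbar DRG. There it was in a larger share of tdTomato neurons than the 9.45% of kept adult neurons with a UMI here (mean over plates). The 2 assays were not compared by cluster. It was measured at 6.27, 8.16, 24.1, 9.03 and 5.39 CPM in cluster 5 (10.6 ± 7.69, n = 5, 20 UMIs) and at 0, 0, 1.27, 0 and 6.25 CPM in cluster 1 (1.5 ± 2.71, n = 5, 2 UMIs). Cluster 3 had 0, 0.792, 0 and 0 CPM, cluster 4 had 2.93 and 0 CPM, and cluster 2 had none. Replicate 5 of cluster 1, with 6.25 CPM, lay within the range of cluster 5, and the other 4 plates lay below it. The difference between clusters 5 and 1 was 9.08 CPM, with cluster 5 higher on 4 of 5 plates. Paired by plate, a 2-sided exact permutation test gave p = 0.125, where 5 pairs cannot go below 0.0625, and the same test without pairing gave p = 0.0159 (smallest possible p 0.00794). With no filter on low counts, the same edgeR test gave a log2 fold change of 3.65 (SE 0.89, adjusted p = 0.00209). Grin3a was detected in 11 of 31 cluster 5 neurons (35.5%, 95% exact interval 19.2 to 54.6), 2 of 51 in cluster 1, 0 of 15 in cluster 2, 1 of 41 in cluster 3 and 1 of 28 in cluster 4. All 11 of these cluster 5 neurons also had a UMI of its obligatory partner Grin1, as did 19 of the other 20.

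The other receptor genes too low for the filter gave few values by cluster. Htr3a, the 5-HT3 subunit that forms channels by itself, had 0, 7.44, 4.58, 4.10 and 4.79 CPM in cluster 5 (8 UMIs in 5 of 31 neurons) and no UMI in clusters 1 to 4. Chrna4, a nicotinic subunit that pairs with Chrnb2, had 2.56, 4.05, 3.75, 2.22 and 0 CPM in cluster 1 (11 UMIs in 9 of 51 neurons) and no UMI in clusters 2 to 5. Neither passed an unfiltered edgeR test between clusters 5 and 1 (adjusted p = 0.32 for Htr3a and 0.454 for Chrna4). Grid1, a delta receptor gene whose protein binds synaptic organizers rather than gating current by glutamate, had 14.1 ± 6.61 CPM in cluster 5 and 2.03 ± 1.45 CPM in cluster 1 (n = 5 plates each), with an adjusted p of 0.00388 in the unfiltered test. Grid1 was singled out after its values were seen.

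Clusters 1 and 5 were set against clusters 2 to 4. Of the 14 members 3 were higher in clusters 1 and 5 and 2 were lower, where 10.6% of all genes tested were called, 4.99% higher and 5.6% lower. Gria2 (log2 fold change 0.66, SE 0.18, adjusted p = 0.017), Grik1 (1.21, SE 0.38, adjusted p = 0.0412) and P2rx6 (0.74, SE 0.24, adjusted p = 0.0468) were higher. Grm4 (-1.01, SE 0.25, adjusted p = 0.0076) and Grm8 (-1.86, SE 0.55, adjusted p = 0.0287) were lower. For Grm8 the 2 clusters lay apart, with 1.05 CPM in cluster 1 and 27.0 CPM in cluster 5, so the contrast does not describe cluster 5. Clusters 2 and 4 were present only on replicates 1 and 2 and cluster 3 almost only on replicates 2 to 5. Each of these 5 calls was lost without 1 or more plates, with adjusted p as follows without replicate 1: 0.257 for Gria2, 0.509 for P2rx6, 0.0539 for Grm4 and 0.23 for Grm8. Without replicate 2 they were 0.512 for Grik1, 0.1 for P2rx6, 0.172 for Grm4 and 0.176 for Grm8, and without replicate 4 they were 0.0733 for Gria2, 0.0885 for Grik1, 0.138 for P2rx6 and 0.0576 for Grm8. Without replicate 3 the value was 0.115 for Grik1 and without replicate 5 it was 0.0731 for P2rx6. Without the plate block Gria2 (0.298), Grik1 (0.0823) and P2rx6 (0.0551) were not called, and with DESeq2 they were not either (0.0545, 0.0839 and 0.128). In replicates 1 and 2 alone, the log2 fold change of Grm8 was 0.08 (adjusted p = 0.966).

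Cluster 1 against the mean of the other clusters gave 5 of 14 members called, 2 higher and 3 lower, where 12.6% of all genes tested were called, 6.23% higher and 6.39% lower. Gria2 (log2 fold change 0.85, SE 0.17, adjusted p = 0.000754) and P2rx5 (0.93, SE 0.31, adjusted p = 0.0485), a P2X subunit, were higher in cluster 1. Grm4 (-0.99, SE 0.26, adjusted p = 0.0105) was lower, as were Grm8, with 2 UMIs in cluster 1 (adjusted p = 5.86e-05), and Grm7, with none there (adjusted p = 0.0178). P2rx5 (chromosome 11, 73155389 to 73172687) was measured at 30.8, 26.5, 30.5, 28.3 and 13.2 CPM in cluster 1 (25.9 ± 7.28, n = 5) and at 28.5, 14.1, 10.1, 15.9 and 24.0 CPM in cluster 5 (18.5 ± 7.53, n = 5), and these overlapped. The Grm8 call held without any 1 plate, though not in replicates 1 and 2 alone (adjusted p = 1). The calls of Gria2 (0.0618), P2rx5 (0.411), Grm4 (0.082) and Grm7 (1) were lost without replicate 1, those of Grm4 (0.0992) and Grm7 (1) without replicate 2, that of P2rx5 without replicate 3 (0.146), and those of P2rx5 (0.158) and Grm4 (0.059) without replicate 4. Without the plate block, Gria2 (0.0862), Grm7 (0.0562) and P2rx5 (0.0708) were not called, and P2rx5 was not called with DESeq2 (0.163).

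Cluster 5 against the mean of the others gave 3 of 14 members higher and 0 lower, where 7.42% of all genes tested were called, 4.29% higher and 3.13% lower. These were Grik1 (log2 fold change 1.65, SE 0.36, adjusted p = 0.00307), Grm8 (1.67, SE 0.40, adjusted p = 0.00778) and P2rx6 (0.82, SE 0.24, adjusted p = 0.0349). The Grik1 call was lost without replicate 2 (0.165), that of Grm8 without replicate 1 (0.0637), 2 (0.0868) or 3 (0.0635), and that of P2rx6 without replicate 1 (0.355), 4 (0.211) or 5 (0.0584) and with DESeq2 (0.0939). Between clusters 4 and 2, both on replicates 1 and 2, edgeR called 0 of 14 members at an adjusted p under 0.05 and 3 had an unadjusted p under 0.05, where 0.719% of all genes tested were called.

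The stages were compared next. Among the P2X genes, P2rx3 and P2rx1 were high at E14.5 or P0 and had at most 3 UMIs at P12 or in the adult, and P2rx5 and P2rx6 had their highest mean levels in the adult. Grm3, a group II mGlu receptor gene, and Chrna3, a ganglionic nicotinic subunit gene, had their highest levels at E14.5. Glrb and Grin1 rose from E14.5 to P0 and again to P12. Sums over the kept neurons of a plate were fitted over all 13 plates with edgeR (quasi-likelihood test, no block, Benjamini-Hochberg adjusted p). Of the 55 genes 25 passed the filter and 17 were called across stages, a share close to the 64.6% of all genes tested that were called.

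P2rx3 (chromosome 2, 84996549 to 85037108) was measured at 47.3 and 30.8 CPM at E14.5 (39.1 ± 11.6, SD, n = 2 plates) and at 7.91 and 4.95 CPM at P0 (6.43 ± 2.09, n = 2). It had no UMI on the 4 P12 plates, and 3 UMIs in the adult, all on replicate 4 (1.12 CPM). The groups E14.5, P0 and the later stages did not overlap (adjusted p = 8.34e-06 across stages). P2rx3 at E14.5 was at least 61.6-fold higher than the P12 floor of 3 counts over the group, and its ratio to the adult was 121 (95% counting interval 39.8 to 600). The 8 nociceptor markers, whose neurons also use P2rx3, summed to 63.6 to 107 CPM at E14.5, with Scn10a, Calca, Mrgprd and Trpa1 at 0, and to 10.8 to 200.3 CPM in the adult, and their part in the P2rx3 levels was not tested.

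P2rx1 (chromosome 11, 72999056 to 73015200), a fast desensitizing P2X subunit, was measured at 13.1 and 9.35 CPM at E14.5 (11.2 ± 2.67, n = 2) and at 64.2 and 49.9 CPM at P0 (57.1 ± 10.1, n = 2). At P12 it was at 0, 0, 0 and 0.954 CPM, and in the adult at 0, 0, 0, 0.654 and 0 CPM. The P0 plates stood above all others (adjusted p = 2.76e-07), with ratios of 229 to P12 (95% counting interval 40.2 to 9118) and 225 to the adult (60.7 to 1878). P2rx5, its neighbor on chromosome 11, had 0 and 0.907 CPM at E14.5, 2.15 and 4.17 CPM at P0 (3.16 ± 1.43, n = 2), 10.1, 10.0, 2.95 and 7.01 CPM at P12 (7.51 ± 3.36, n = 4) and 17.9, 18.2, 21.4, 18.9 and 13.7 CPM in the adult (18 ± 2.78, n = 5). All adult plates were above all P12 plates (adjusted p = 1.84e-05 across stages). The ratio of the adult to E14.5, where 1 UMI was counted, was 39.2 (6.95 to 1555).

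P2rx6 was measured at 2.19 and 0 CPM at E14.5 and at 0.590 and 0 CPM at P0. It had 47.9, 23.9, 4.64 and 7.90 CPM at P12 (21.1 ± 19.8, n = 4) and 23.6, 44.4, 32.4, 35.1 and 39.7 CPM in the adult (35 ± 7.88, n = 5). The P12 plates of replicates 1 and 2 overlapped with the adult, and those of replicates 3 and 4 lay below it (adjusted p = 3.90e-05 across stages). The ratio of P12 to P0, where 1 UMI was counted, was 37.4 (6.51 to 1494). P2rx4, a P2X subunit found in many cell types, was measured at 13.8 and 5.91 CPM at E14.5, 14.6 and 19.7 CPM at P0, 63.7, 27.7, 19.5 and 16.4 CPM at P12 and 32.0, 33.9, 30.0, 51.7 and 26.7 CPM in the adult. It was called across stages, though not without E14.5 replicate 2 (adjusted p = 0.103), and no step between neighboring stages was called for it. P2rx2 and P2rx7 had 14 UMIs together.

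Grm3 (chromosome 5, 9485236 to 9725352) was measured at 92.9 and 56.3 CPM at E14.5 (74.6 ± 25.9, n = 2), at 37.9 and 47.6 CPM at P0 (42.7 ± 6.86, n = 2), at 1.99, 5.02, 0.273 and 0 CPM at P12 (1.82 ± 2.31, n = 4) and at 0.447, 0.644, 0.287, 1.09 and 0 CPM in the adult (0.495 ± 0.41, n = 5). The plates of E14.5 and P0 stood above all later plates (adjusted p = 4.88e-08 across stages, the lowest of the members). Grm5, a group I mGlu receptor gene, had 7.54 and 3.12 CPM at E14.5, 0.757 and 0 CPM at P0 and no UMI later. Its level at E14.5 was at least 16.3-fold higher than the adult floor of 3 counts. The group III genes Grm7 and Grm8 were not called across stages, with Grm8 at 10.8 ± 3.90, 20.4 ± 6.26, 18.2 ± 4.00 and 18.5 ± 3.67 CPM at E14.5, P0, P12 and in the adult.

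Glrb (chromosome 3, 80843598 to 80913660) was measured at 13.9 and 6.27 CPM at E14.5 (10.1 ± 5.37, n = 2), 84.1 and 71.3 CPM at P0 (77.7 ± 9.01, n = 2), 209.7, 190.5, 97.5 and 75.8 CPM at P12 (143 ± 66.5, n = 4) and 177, 174, 149.7, 132 and 131 CPM in the adult (153 ± 22.1, n = 5). The E14.5 plates were below all others, and P12 replicate 4 lay in the P0 range (adjusted p = 6.14e-06 across stages). Grin1 (chromosome 2, 25291177 to 25319187) was measured at 23.5 and 16.9 CPM at E14.5 (20.2 ± 4.66, n = 2), 50.1 and 49.1 CPM at P0 (49.6 ± 0.707, n = 2), 116, 113, 70.6 and 64.6 CPM at P12 (90.9 ± 27.1, n = 4) and 52.6, 51.0, 48.0, 51.2 and 59.8 CPM in the adult (52.5 ± 4.38, n = 5). All P12 plates were above all plates of the other stages (adjusted p = 1.70e-05). Grin3a had 0.758 and 2.10 CPM at E14.5 (3 UMIs), 7.15 and 5.05 CPM at P0 (16 UMIs), 4.08, 7.77, 2.93 and 5.91 CPM at P12 (22 UMIs) and 1.92, 3.37, 3.32, 1.58 and 3.47 CPM in the adult (28 UMIs). It was too low for the filter, and its P0 and P12 plates overlapped.

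The AMPA genes went different ways. Gria3 (chromosome X, 41400819 to 41678601) was measured at 6.18 and 9.14 CPM at E14.5 (7.66 ± 2.09, n = 2), 4.89 and 6.90 CPM at P0 (5.90 ± 1.42, n = 2), 8.44, 9.32, 13 and 10.5 CPM at P12 (10.3 ± 1.97, n = 4) and 29.5, 20.7, 18.3, 18 and 29.7 CPM in the adult (23.2 ± 5.91, n = 5), and all adult plates were above all others (adjusted p = 1.87e-04). Gria1, the subunit known for activity-dependent delivery to synapses, had 1.4 and 0 CPM at E14.5 and 13.2 and 8.95 CPM at P0 (28 UMIs). It then had 1.48, 0, 3.15 and 4.11 CPM at P12 (14 UMIs) and no UMI in 208 adult neurons, and its P0 level was at least 37.8-fold higher than the adult floor of 3 counts. Gria2 was not called across stages (adjusted p = 0.98), with means of 91.1 ± 20.5, 92.0 ± 14.2, 88.9 ± 35.4 and 81.5 ± 13.9 CPM at E14.5, P0, P12 and in the adult. Gria4 was not called either, with 14.8 ± 12.8, 25.5 ± 6.22, 35.5 ± 18.9 and 24.4 ± 6.97 CPM.

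Among the nicotinic genes, Chrna3 was measured at 12.8 and 16.0 CPM at E14.5 (29 UMIs) and 4.43 and 3.23 CPM at P0 (11 UMIs), with none at P12 or in the adult. Its E14.5 level was at least 24.1-fold higher than the P12 floor and at least 47.4-fold higher than the adult floor. Chrna4 had 14.2 and 19.8 CPM at E14.5, 4.53 and 11.7 CPM at P0, 19.8, 17.2, 0.913 and 0.433 CPM at P12 and 0.739, 0.917, 0.959, 0.555 and 0 CPM in the adult. At P12 the plates of replicates 1 and 2 were in the E14.5 range and those of replicates 3 and 4 in the adult range. Chrna1, the alpha subunit of the muscle receptor, had 6.77 and 2.86 CPM at E14.5, 12.4 and 15.7 CPM at P0, 2.61, 0.955, 5.35 and 0.824 CPM at P12 and 2.67, 4.62, 5.26, 5.08 and 5.02 CPM in the adult, highest on both P0 plates. Chrnb2, with which Chrna4 assembles, had 23.7 and 27.9 CPM at E14.5, 19.7 ± 7.38 CPM at P0 (n = 2), 42.6, 30.5, 25.9 and 39.3 CPM at P12 and 45.3, 41.5, 35.9, 33.2 and 36.7 CPM in the adult, where all plates were above those of E14.5 and P0.

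Grm4, Grik2 and Grik4 were also called across stages. Grm4 had 4.29 and 13.6 CPM at E14.5, below all 11 later plates, which had 20.5 to 39.3 CPM. Grik4, a high-affinity kainate subunit gene, had 14.7 and 18.2 CPM at E14.5, 7.44 and 7.96 CPM at P0, 9.89, 5.42, 3.91 and 5.11 CPM at P12 and 11.4, 13.2, 7.97, 8.22 and 15.2 CPM in the adult. Grik2, the GluK2 kainate subunit gene, had 0 and 2.02 CPM at E14.5, 8.81 and 0.880 CPM at P0, 4.86, 9.54, 4.79 and 4.33 CPM at P12 and 17.9, 16.9, 8.63, 7.62 and 4.52 CPM in the adult, with overlap between the later stages. Grid1, Grik1, Grik5, Gria2, Gria4, Grm7 and Grm8 were among the genes that passed the filter and were not called. Leaving out E14.5 replicate 1 ended the calls across stages of Grm4 (adjusted p = 0.166), Grik2 (0.0867) and Chrnb2 (0.0568), E14.5 replicate 2 that of Grik4 (0.0749) and P0 replicate 2 that of Chrnb2 (0.0765). Grik4 was not called with the adult neurons of clusters 1 to 5 alone (0.0605), nor Chrnb2 in thinned neurons (0.512).

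**Figure D4:**
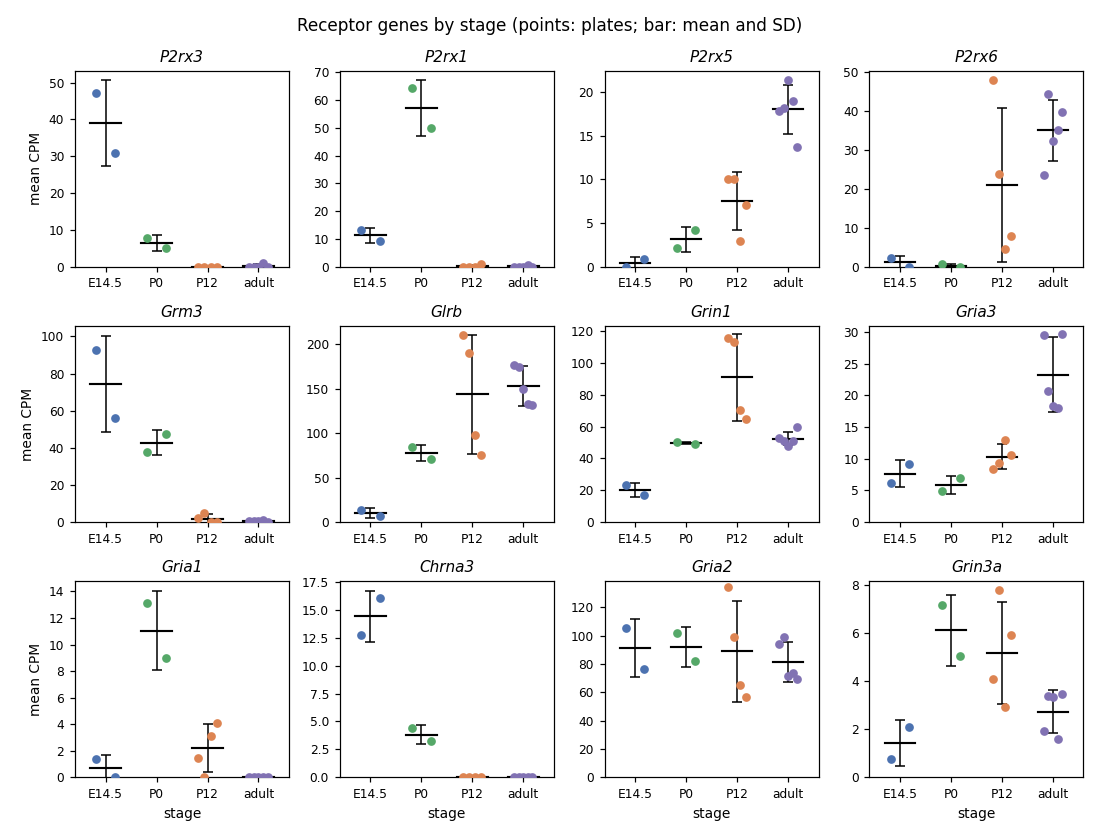
Mean CPM over neurons (vertical axis, linear from 0) of 12 receptor genes by stage (horizontal axis), with 1 point per plate and bars for the mean and SD. P2rx3, P2rx1, Grm3 and Chrna3 had their high plates at E14.5 or P0, P2rx5 and Gria3 in the adult, and Gria2 overlapped at all stages.

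From E14.5 to P0, 6 of the 25 tested members rose and 2 fell, where 27.8% of all genes tested were called, 14.7% up and 13.1% down. Glrb (log2 fold change 2.82, SE 0.44, adjusted p = 0.000463), P2rx1 (2.03, SE 0.51, adjusted p = 0.0099), Grm4 (1.59, SE 0.49, adjusted p = 0.0263), Chrna1 (1.47, SE 0.50, adjusted p = 0.0392) and Grin1 (1.10, SE 0.28, adjusted p = 0.00914) rose. So did Gria1 (adjusted p = 0.0208), with a ratio of 23.1 (95% counting interval 3.82 to 945) to the 1 UMI of E14.5. P2rx3 (-2.53, SE 0.63, adjusted p = 0.0122) and Grik4 (-1.49, SE 0.51, adjusted p = 0.0404) fell. With 2 plates a stage, only the Glrb call held without any 1 plate. Without any 1 of the 4 plates P2rx3 (adjusted p from 0.0594 to 0.114), Gria1 (0.0646 to 0.144) and Chrna1 (0.0872 to 0.192) were not called. P2rx1 (0.179), Grin1 (0.059), Grm4 (0.22) and Grik4 (0.32) were lost without P0 replicate 1, Grm4 (0.22) and Grik4 (0.101) without E14.5 replicate 1, and P2rx1 (0.091), Grin1 (0.0872) and Grik4 (0.17) without E14.5 replicate 2. Proprioceptor markers summed to 688 to 738 CPM in E14.5 cluster 3 and 1727 to 2113 CPM in clusters 1 and 2, and with clusters 1 and 2 alone Chrna1 (0.0541), Grik4 (0.0752) and Grm4 (0.076) were not called. With DESeq2 Chrna1 (0.154), Gria1 (0.0568) and Grik4 (0.0572) were not called, and with neurons thinned to 7000 UMIs Grin1 (0.298) and Grm4 (0.0684) were not.

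From P0 to P12, 3 of 25 members rose and 5 fell, where 18.1% of all genes tested were called, 9.1% up and 9.01% down. Grin1 (log2 fold change 1.07, SE 0.22, adjusted p = 0.0039), Glrb (1.01, SE 0.31, adjusted p = 0.0366) and P2rx6 (adjusted p = 0.00311) rose. Grm3 (-5.00, SE 0.53, adjusted p = 2.28e-05) and Chrna1 (-2.10, SE 0.43, adjusted p = 0.00346) fell, as did P2rx1 (adjusted p = 1.16e-05), P2rx3 (adjusted p = 0.00574) and Chrna3 (adjusted p = 0.0129). P2rx3 and Chrna3 at P0 were at least 11-fold and 7.56-fold higher than the P12 floor of 3 counts. Chrna3 was lost without P0 replicate 1 (0.0893) or 2 (0.0581), P2rx3 without P0 replicate 1 (0.0581), Grin1 without P0 replicate 2 (0.0598), and Glrb without P12 replicate 1 (0.0729) or 2 (0.0571), P0 replicate 1 (0.126) or 2 (0.265), and with P12 replicates 3 and 4 alone (0.187). In neurons thinned to 7000 UMIs Glrb (0.247), Grin1 (0.347), P2rx3 (0.11) and P2rx6 (0.1) were not called.

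From P12 to the adult, 2 of 25 members rose and 3 fell, where 14.1% of all genes tested were called, 7.57% up and 6.56% down. P2rx5 (log2 fold change 1.47, SE 0.31, adjusted p = 0.00707) and Gria3 (1.14, SE 0.25, adjusted p = 0.00801) rose. Grin1 (-0.81, SE 0.16, adjusted p = 0.0049), Chrna4 (-2.78, SE 0.83, adjusted p = 0.0376) and Gria1 (adjusted p = 0.0133) fell, and Gria1 at P12 was at least 9.16-fold higher than the adult floor. Chrna4 was lost without P12 replicate 1 (0.124) or 2 (0.0866), without each of the adult plates (0.052 to 0.0674), with adult replicates 1 and 2 (0.146) or 3 to 5 alone (0.0911), with adult clusters 1 to 5 alone (0.0544) and with P12 replicates 3 and 4 alone (0.926), Gria1 without P12 replicate 3 (0.055) and with P12 replicates 1 and 2 alone (0.313), P2rx5 with P12 replicates 1 and 2 alone (0.121), and Grin1 in thinned neurons (0.414).

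The clusters within earlier stages were examined as well. At P12 Gria2 and Chrna4 differed among clusters that lie on the same plates, 2 of 10 tested members, where 13.1% of all genes tested were called. The test joined cluster 3 against 2, 4 against 1 and 5 against 1. P12 clusters 2 and 3 lie only on replicates 1 and 2 and clusters 1, 4 and 5 only on replicates 3 and 4, so that differences between these sets cannot be told apart from plate and depth and were not tested. Gria2 was measured at 201 and 166 CPM in cluster 2, 86.4 and 79.3 CPM in cluster 3, 109 and 139.8 CPM in cluster 5, 68.9 and 68.3 CPM in cluster 4 and 47.8 and 47.0 CPM in cluster 1 (adjusted p = 5.54e-04). Cluster 2 was above cluster 3 on the same plates, and cluster 5 above clusters 1 and 4. Chrna4 had 40.0 and 48.1 CPM in cluster 2, 5.44 and 7.88 CPM in cluster 3, 10.2 and 13.4 CPM in cluster 5 and none in clusters 1 and 4 (adjusted p = 0.0146, lost without any 1 of the 4 plates, from 0.0643 to 0.128, and with sums of at least 4 neurons, 0.237). Grm8 and Grm7 did not pass the filter here. Grm8 had 0 and 0 CPM in cluster 2 and 3.05 and 0 CPM in cluster 5, against 23.1 and 21.7 CPM in cluster 3, 25.0 and 23.5 CPM in cluster 1 and 19.5 and 23.6 CPM in cluster 4. Grm7 was at 0 on both plates of clusters 2 and 5 and at 8.68 to 17.8 CPM in the other clusters, so clusters 2 and 5 were those with the most Gria2 and Chrna4 and the least Grm7 and Grm8. The 7 cutaneous mechanoreceptor markers summed to 328 to 375 CPM in cluster 2 and 209 to 246 CPM in cluster 5. They summed to 4.78 to 103 CPM in the other clusters, and their relation to these genes was not tested.

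**Figure D5:**
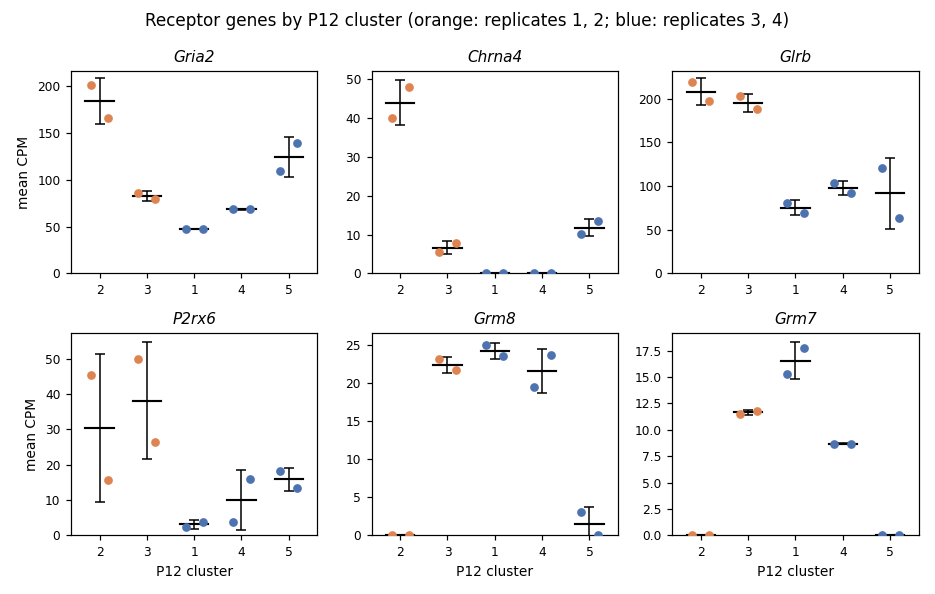
Mean CPM over neurons (vertical axis, linear from 0) of 6 receptor genes by P12 cluster (horizontal axis), with 1 point per plate, bars for the mean and SD, orange for replicates 1 and 2 and blue for replicates 3 and 4. Within each plate pair, Gria2 and Chrna4 were highest where Grm8 and Grm7 were at or near 0, in cluster 2 and in cluster 5.

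At P0, cluster 2 against clusters 1 and 3 gave 1 of 11 members called, where 1.38% of all genes tested were called, 0.81% higher and 0.573% lower. P2rx1 was lower in cluster 2, at 14.4 and 2.76 CPM, than in cluster 1, at 88.0 and 50.4 CPM, and cluster 3, at 32.3 and 107 CPM (log2 fold change -2.63, SE 0.58, adjusted p = 0.0281). With DESeq2 the adjusted p was 0.19, and the glia markers summed to 3319 to 3370 CPM in cluster 3. At E14.5, clusters 3 and 4 against clusters 1 and 2 gave 0 of 4 members called with edgeR and 0 at an unadjusted p under 0.05, where 1.97% of all genes tested were called. The study proposes that E14.5 clusters 3 and 4 are not proprioceptors, and the E14.5 stage values include their neurons. The cutaneous mechanoreceptor markers summed to 363 to 456 CPM in cluster 3, 217 CPM on the 1 plate of cluster 4 and 16.2 to 43.1 CPM in clusters 1 and 2.

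Kept adult neurons were set against 242 adult wells with at least 2000 genes that the annotation leaves out. Grm4 (log2 fold change 0.64, SE 0.15, adjusted p = 0.00432) and Grid1 (0.98, SE 0.26, adjusted p = 0.0149) were higher in the left-out wells and P2rx6 (-0.53, SE 0.13, adjusted p = 0.00798) was lower, 3 of 18 members, where 14.7% of all genes tested were called, 8.3% higher and 6.43% lower. The glia markers summed to 7718 to 12730 CPM in the left-out wells and 327 to 878 CPM in the kept neurons, and their part in these differences was not tested. P2rx7, known from glia and immune cells, had 5.82 ± 3.10 CPM in the left-out wells (35 UMIs) and 0.375 CPM in kept neurons (3 UMIs). Grik3, a kainate subunit gene, had 7.14 ± 2.64 CPM in the left-out wells (56 UMIs) and 1.38 ± 1.17 CPM in kept neurons (13 UMIs). All 3 calls were lost with DESeq2, with adjusted p of 0.118 for Grm4, 0.234 for Grid1 and 0.216 for P2rx6, and that of Grid1 also without replicate 1 (0.05) or 3 (0.102). Without the plate block Grid1 (0.106) and P2rx6 (0.0752) were not called. Within clusters 1 and 5, adult replicates 1 and 2 were set against replicates 3 to 5, since clusters 2 and 4 lie only on the former. Gria2 was higher on replicates 1 and 2 (log2 fold change 0.48, SE 0.16, adjusted p = 0.0381), 1 of 11 members, where 23.3% of all genes tested were called, 12.1% higher and 11.2% lower, and this call was lost without replicate 1 (0.0849), 2 (0.196), 3 (0.178) or 5 (0.057). Clusters 1 and 5 of a plate entered this fit as separate sums, with cluster and not plate as a term. Each plate was thus counted more than once, so the adjusted p may be too low and the share of genes called too high.

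Of 39 genes for auxiliary subunits, scaffolds and channels that work with these receptors, 14 were tested among the adult clusters and 1 was called across them, where 16% of all genes tested were. Cacng2 (stargazin), which brings AMPA receptors to the synapse, was at 94.1 ± 23.9 CPM in cluster 1 and 70.2 ± 17.4 CPM in cluster 5 (n = 5 plates each), and at 36.1, 26.3 and 23.8 CPM in clusters 2, 3 and 4. It was higher in clusters 1 and 5 than in clusters 2 to 4 (log2 fold change 1.65, SE 0.23, adjusted p = 1.3e-05). It was also higher in cluster 1 and in cluster 5 than in the mean of the others, and Dlg2, a synaptic scaffold, was lower in cluster 5 (-0.92). Between clusters 5 and 1, 1 of the 14 was higher, Panx1 (0.87, adjusted p = 0.048), a channel through which cells release ATP, where 5.32% of all genes tested were higher. Across stages 18 of 25 were called, a share close to the 64.6% of all genes tested, with Lynx1, Cnih2, Panx2 and Ly6e the lowest in adjusted p. Lynx1, a membrane-anchored modulator of nicotinic receptors, averaged 2.08, 163, 521 and 497 CPM at E14.5, P0, P12 and in the adult. Cnih2, an AMPA receptor auxiliary subunit, averaged 210.1, 238, 9.71 and 4.32 CPM. Of the 25, 7 rose and 1 fell from E14.5 to P0, where 14.7% of all genes tested rose and 13.1% fell. From P0 to P12, 7 rose and 4 fell (9.1% and 9.01% of all genes), and from P12 to the adult 1 rose and 5 fell (7.57% and 6.56%).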

How the data were processed

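The authors deposited whole-number UMI counts per gene and well for 13 plates, not normalized, and an annotation giving stage, plate and cluster (hicat) of the neurons they kept. The submitters' processing notes name STAR, mm10 and GRCm38, and how strand was counted is not given in the sources used here. Samples are plates, called replicates and numbered within a stage. The members and lists were chosen with earlier results of these data known.

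Each well was scaled to CPM by its total of UMIs over all genes, and CPM was averaged over neurons of a plate, then over plates. UMIs were summed per plate, or per cluster and plate (at least 2 neurons), and tested with the quasi-likelihood F-test of edgeR 4.0.16 (R 4.3.3) after TMM scaling and its filterByExpr filter, at an adjusted p under 0.05 over all genes. Comparisons within a stage had plate as a block, since all sums of a plate share its preparation. That between sets of adult plates had cluster as a block instead, and those between stages had none. SE is the log2 fold change over the square root of F. Unless another tool is named, adjusted p-values are edgeR's. Fold bounds set a group with no UMI at 3 counts, and ratios to groups of 1 to 3 UMIs carry exact 95% counting intervals, which like all intervals cover counting error only. Left-out wells had at least 2000 genes.

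Every called member of an adult-cluster or stage comparison is named. Plate values are given for Grin3a and the 8 called members of lowest adjusted p across adult clusters and across stages, and for others as ranges or where a comparison turns on them. Of the 39 partner genes, up to 4 called genes of lowest adjusted p are named. Alternatives were DESeq2 1.42.0, its size factors, no filter, thinning to 7000 UMIs, other minima of neurons, no block, plate sets and each plate left out. Those by P12 plate pair and the Grin3a test paired by plate were chosen after seeing the data. The code was tested on simulated data. limma 3.58.1 underlies edgeR, and tables and plots were made with pandas 2.3.3, numpy 2.4.6, matplotlib 3.10.9 and scipy 1.17.1 in Python 3.11.15. Gene positions are those of RefSeq for GRCm38.p6. No protein or RNA sequences are shown, and values of some members are not reported here.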

Additional observations from a re-analysis of the deposited data

Results flagged for a closer look

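Within a stage or adult cluster, 37 sets of 4 or 5 plates were tested for a plate far from the others by Dixon's ratio, and 6 stood out, where chance gives about 1 in 20. In 4 of the 6 every other plate was at 0, so the ratio was 1 by construction and that rate does not apply. P2rx1 was at 0.954 CPM on P12 replicate 4 and at 0.654 CPM on adult replicate 4, and at 0 on every other plate of those stages. P2rx3 was at 1.12 CPM on adult replicate 4 and at 0 on the other adult plates. Grin3a was at 24.1 CPM on replicate 3 in adult cluster 5, where the others had 5.39 to 9.03 CPM, at 6.25 CPM on replicate 5 in cluster 1, where the others had 0 to 1.27 CPM, and at 0.792 CPM on replicate 3 in cluster 3, where the others had none.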

How the results depend on the processing

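Counts of members called were within 1.5 times the value reported in 126 of 182 alternatives. Of 950 alternatives for the named members, 171 lost the call and 1 reversed, Grm8 between clusters 1 and 5 and clusters 2 to 4, at a log2 fold change of 0.0757 in adult replicates 1 and 2 alone. Alternatives in which a gene was not tested are in neither number. Across adult clusters, Grm7 had 8 tested alternatives where Grm8 had 11. Leaving out 1 plate gave 2 to 5 calls across adult clusters (6 reported), 1 to 3 for cluster 5 against 1 (3), 1 to 4 for clusters 1 and 5 against 2 to 4 (5), 1 to 5 for cluster 1 against the others (5), 1 to 2 for cluster 5 against the others (3), 15 to 18 across stages (17), 1 to 5 for P0 against E14.5 (8), 5 to 9 for P12 against P0 (8), 4 to 6 for the adult against P12 (5), 2 to 3 across P12 clusters (2), 2 to 4 for left-out wells (3), 0 to 1 for the plate sets (1) and 0 for cluster 4 against 2 (0). Leaving out a plate within the P0 or E14.5 clusters leaves no residual degrees of freedom and was not run.

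Thinned neurons gave 8 calls across stages, 3 for P0 against E14.5, 2 for P12 against P0 and 0 in the other comparisons, where few members pass the filter at this depth. DESeq2 gave 5 for P0 against E14.5, 2 for clusters 1 and 5 against 2 to 4, and 0 for P0 cluster 2, left-out wells and plate sets. With no filter there were 6 for cluster 5 against 1, 5 for cluster 5 against the others, 4 across P12 clusters, 2 for P0 cluster 2, 7 for left-out wells and 0 for plate sets. Adult replicates 1 and 2 alone gave 1 for cluster 5 against 1, 0 for clusters 1 and 5 against 2 to 4, 2 for cluster 1 and 0 for cluster 5 against the others, and replicates 3 to 5 alone gave 1, 1 and 1 for the first 3 of these. E14.5 clusters 1 and 2 alone gave 5 for P0 against E14.5, and P12 replicates 1 and 2 alone gave 3 for the adult against P12. Without the plate block there were 2 for clusters 1 and 5 against 2 to 4, 2 for cluster 1 against the others and 1 for left-out wells. The causes were not tested. Of the 55 members, 26 had fewer than 20 UMIs, and absence and missed detection cannot be told apart for them.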
